A study of Homo sapiens with 14 samples.

Results

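The levels of 10 genes of epithelial cell junctions and the epithelial cell surface were followed over all 14 arrays of a human gastric cancer line taken through 3 models of epithelial to mesenchymal transition (EMT). These members were CDH1, CLDN1, CLDN3, CLDN4, CLDN7, OCLN, TJP1, F11R, EPCAM and ST14, found by symbol in the array's annotation. Of these 10, 8 had a probe set annotated to them alone, and all 8 passed the filter on dim genes, which kept 11050 of 18417 genes. OCLN shared its probe set with the pseudogene OCLNP1, so its values are given as those of a shared probe set and enter no count or test. No probe set was listed under F11R, the junctional adhesion molecule A gene, and it has no value here.

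Epithelial cells are held together near their apical side by tight junctions and, just below them, by adherens junctions. In tight junctions, claudins form the paracellular seal and its ion pores, occludin (OCLN) and F11R are further membrane proteins, and the scaffold ZO-1 (TJP1) ties them to actin. E-cadherin (CDH1) is the adhesion receptor of adherens junctions, EPCAM is an adhesion protein that binds and stabilises claudins, and ST14 encodes matriptase, a membrane serine protease of epithelia. In EMT these contacts are taken down, and zinc finger repressors such as SNAI1, the protein Snail, are known to silence CDH1 and claudin genes by binding E-boxes in their promoters.

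The 14 arrays were GeneChip Human Gene 1.0 ST, 1 per condition, from cells that the labels call MKN28 and the study's text calls MKN74. The parental line gave 9 arrays: hypoxia (1% oxygen) with ANGPTL4 knockdown for 1 and 2 days and without it for 1 and 2 days, TGFβ (10 ng/ml) with knockdown for 1 and 2 days and without it for 1 and 2 days, and untreated cells on day 2. Another 5 came from Snai1ER cells, which carry a Snai1-ER transgene that 4-hydroxytamoxifen (4-OHT, 20 ng/ml) switches on: 4-OHT with knockdown for 2 and 4 days, 4-OHT without it for 2 and 4 days, and untreated cells on day 4. ANGPTL4 encodes a secreted protein of lipid metabolism. The knockdown in Snai1ER cells came from an shANGPTL4 construct, while the labels of the parental arrays say knockdown only. No untreated array had the knockdown and no parental array had 4-OHT, so 4-OHT itself and activation of the transgene cannot be told apart, nor can the transgene and other differences between the lines. In bulk RNA such as this, fewer cells that express a gene and less RNA per cell cannot be told apart.

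All levels are log2 values, so that a difference of 1 is a doubling, and levels were compared between arrays but never between genes. Of the 14 arrays, 12 had a median probe set at 5.997 to 6.16, but the TGFβ arrays without knockdown had theirs at 5.23 and 5.19, and the 11050 genes had a median difference of -0.45 and -0.47 between these 2 arrays and the untreated one. For TGFβ the deposited values are followed by those after quantile normalization, which gives every array the same distribution and brought these medians to 0.02 and 0.00. One more array, hypoxia with knockdown on day 1, was unlike the rest: its values deviated from the others' mean by 0.69 (SD over genes), beside 0.27 to 0.56 elsewhere. SNAI1 levels were 8.80 to 9.85 in Snai1ER cells, against 4.76 to 6.19 in parental cells. ANGPTL4 lay below the filter level of 5.90 on every array, so its probe set did not check the knockdown labels. As deposited it read 5.66 and 5.29 with knockdown in hypoxia, against 5.29 and 5.22 without. On 4-OHT it read 5.35 and 5.28, against 5.43 and 5.05. In TGFβ it read 5.29 and 5.29, against 4.16 and 4.25, and after quantile normalization 5.12 and 5.14, against 4.98 and 5.10. Only on day 2 of 4-OHT was it lower with knockdown, so the arrays do not show the knockdown. Of the epithelial markers, 8 of 9 passed the filter, against 4 of 10 mesenchymal, 1 of 5 leukocyte and 0 of 4 endothelial markers.

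The sequence around the start sites of the claudin members is shown because SNAI1 recognises the E-box CAGGTG, which reads CACCTG on the other strand, and because CLDN1, CLDN4 and CLDN7 carried the claudin differences below while CLDN3 scarcely varied. RefSeq windows of 300 bases, from 250 before to 50 after a start site (build GRCh38.p14), were found for 6 of the 10 members, 11 windows in all. Each is printed 5′ to 3′ on the strand of its gene, with E-boxes in capitals. The windows lie at chr3:190322397-190322696 (minus strand) for CLDN1, chr7:73830746-73831045 (plus strand) for CLDN4, chr17:7262429-7262728 (minus strand) for the second start site of CLDN7 and chr7:73770221-73770520 (minus strand) for CLDN3.
CLDN1: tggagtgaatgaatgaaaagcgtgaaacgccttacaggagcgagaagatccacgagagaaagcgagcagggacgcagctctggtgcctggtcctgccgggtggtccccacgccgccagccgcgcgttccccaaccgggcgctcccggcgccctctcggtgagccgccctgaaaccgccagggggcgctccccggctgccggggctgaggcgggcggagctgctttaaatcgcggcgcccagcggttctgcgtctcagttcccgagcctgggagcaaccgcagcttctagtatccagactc
CLDN4: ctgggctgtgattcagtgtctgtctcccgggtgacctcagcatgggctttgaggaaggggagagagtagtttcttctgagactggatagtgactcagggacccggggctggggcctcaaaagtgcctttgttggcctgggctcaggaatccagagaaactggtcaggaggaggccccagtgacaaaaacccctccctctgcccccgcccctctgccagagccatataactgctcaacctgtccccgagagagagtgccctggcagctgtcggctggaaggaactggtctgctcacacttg
CLDN7: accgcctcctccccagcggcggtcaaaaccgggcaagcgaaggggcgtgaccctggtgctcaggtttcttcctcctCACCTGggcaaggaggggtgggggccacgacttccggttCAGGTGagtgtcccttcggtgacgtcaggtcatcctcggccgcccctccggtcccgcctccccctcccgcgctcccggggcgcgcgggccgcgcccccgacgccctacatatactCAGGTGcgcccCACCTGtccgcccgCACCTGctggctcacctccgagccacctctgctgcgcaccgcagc
CLDN3: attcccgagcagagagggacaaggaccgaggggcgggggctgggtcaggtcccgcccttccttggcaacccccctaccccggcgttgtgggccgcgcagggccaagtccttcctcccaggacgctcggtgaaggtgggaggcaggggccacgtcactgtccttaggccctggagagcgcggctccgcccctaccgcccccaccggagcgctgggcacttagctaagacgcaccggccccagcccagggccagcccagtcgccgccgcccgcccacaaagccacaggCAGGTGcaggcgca
The CLDN7 window held 5 E-boxes, whose first bases lay at -174, -135, -20, -9 and 6 from the start site, counted with no position 0. The CLDN3 window held 1, at position 37, and the CLDN1 and CLDN4 windows held none. The window of the other CLDN7 start site held none either, and of the remaining members' windows 1 of 4 for TJP1 and both of OCLN held at least 1. Among 35114 windows of this length, 20.6% held the E-box and 0.635% held at least 3. The hypoxia response core ACGTG, or CACGT on the other strand, was in the CLDN3 window and 1 OCLN window and in 21.4% of all windows. A match is a run of letters and not a measured binding site, and none of the arrays measured binding.

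The 8 members differed widely in how much they varied over the 14 arrays. After quantile normalization, CLDN1 had an SD of 1.14, at percentile 99.0 of the SDs of all 11050 genes, ST14 0.73 (percentile 94.5), CLDN4 0.59 (percentile 88.1) and CLDN7 0.44 (percentile 72.5). CDH1, the marker most used for EMT, had an SD of 0.27 (percentile 34.3) and TJP1 0.23 (percentile 22.9). EPCAM (SD 0.15, percentile 4.88) and CLDN3 (SD 0.13, percentile 2.41) were among the steadiest genes of the table, where the median SD was 0.33.

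**Figure D1:**
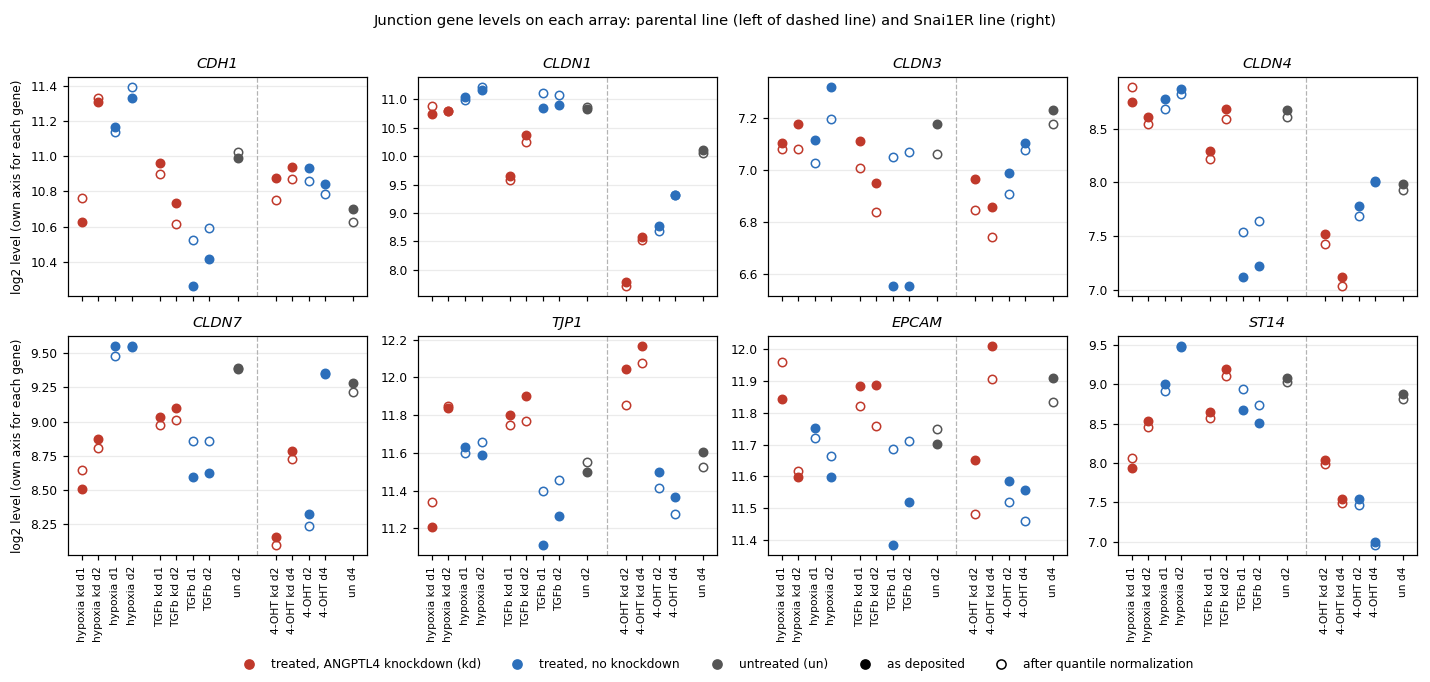
Log2 level of 8 junction genes on each of the 14 arrays, as deposited (filled) and after quantile normalization (open), with ANGPTL4 knockdown (kd, red), without it (blue) and untreated (un, grey); each gene has its own axis, and d marks the day. As deposited, CLDN1 lies between 7.77 and 9.32 on the 4 arrays of 4-OHT, and ST14 between 6.996 and 8.04, while CDH1 stays between 10.26 and 11.33 on all 14.

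Claudin 1 and matriptase were the 2 members that were lower on 4-OHT in Snai1ER cells, and E-cadherin was not among them. Claudin 1, a sealing claudin, stood 2.54-fold lower on day 2 and 1.74-fold lower on day 4 than on the untreated Snai1ER array, and ST14 2.51-fold and 3.68-fold lower. CDH1 read 1.18-fold and 1.10-fold above the untreated array. With 1 array per condition these are sizes without a test, and a member was counted when it differed at least 1.5-fold in 1 direction at both times. By that rule 2 of 8 members were lower and 0 higher, where 1.19% of all genes were lower and 2.3% higher.

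CLDN1 read 8.77 on day 2 and 9.32 on day 4 of 4-OHT, against 10.11 on the untreated Snai1ER array. Both 4-OHT arrays lay below every array of the parental line, where the lowest was 9.65, as for 3.86% of all genes. ST14 read 7.55 and 6.996 on 4-OHT, against 8.88 untreated, and the day 4 value was the lowest of all 14. Differences of -1.33 and -1.88 placed ST14 at percentile 0.172 of all genes by their mean, and those of CLDN1, -1.35 and -0.80, at percentile 0.742. By a 2-fold rule only ST14 counted.

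CLDN7 was lower at 1 of the times: it read 8.33 on day 2 and 9.35 on day 4 of 4-OHT, against 9.28 untreated, which is 1.94-fold lower on day 2 and 1.05-fold higher on day 4. CLDN4 read 7.78 and 8.01, against 7.98 untreated, and TJP1 11.50 and 11.37, against 11.60. CDH1 read 10.93 and 10.84, against 10.70. EPCAM differed by -0.32 and -0.35 and CLDN3 by -0.24 and -0.13, so neither reached the 1.5-fold size. The probe set shared by OCLN and OCLNP1 read 9.45 and 9.82, against 10.12, a difference of -0.67 and -0.30. After quantile normalization the same 2 members counted (1.21% of all genes lower), CLDN1 with differences of -1.38 and -0.75 and ST14 with -1.35 and -1.86.

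The untreated lines already differed in 2 of the claudins. The untreated Snai1ER array read 1.65-fold lower than the untreated parental array for CLDN1 (10.11 against 10.84) and 1.61-fold lower for CLDN4 (7.98 against 8.67), and the other 6 members stayed within 1.5-fold. At this size 8.11% of all genes were lower and 4.74% higher. The 2 arrays also differ in day, 4 in Snai1ER cells and 2 in parental cells, which cannot be told apart from the line. VIM, the mesenchymal filament gene vimentin, lay at 6.57 to 8.18 as deposited in Snai1ER cells (5 arrays), against 3.56 to 5.97 in parental cells (9 arrays). After quantile normalization the summed linear level of the 10 mesenchymal markers was 899 to 1738 in Snai1ER cells, against 620 to 1071 in parental cells. That of the 9 epithelial markers, which include the members CDH1 and EPCAM, was 10187 to 14942 in Snai1ER cells, against 12538 to 17833 in parental cells. The part of these markers in the junction differences was not tested.

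In TGFβ, claudin 4 was the member that stood lower on every scale tried. It read 2.93-fold lower on day 1 and 2.72-fold lower on day 2 than the untreated array as deposited, and 2.10-fold and 1.95-fold lower after quantile normalization. CLDN4 is a tight junction claudin of simple epithelia and lies next to CLDN3 on chromosome 7, with 0 protein-coding genes between them. CLDN3 read close to the untreated array once the arrays were put on the same distribution, with differences of -0.01 and 0.01. As deposited, 3 of 8 members (CLDN3, CLDN4 and CLDN7) were lower by the size rule, which is a share near the 32.3% of all genes that were lower on these low arrays. The deposited CLDN3 value was the same, 6.55505, on both TGFβ arrays. Of all probe sets, 29.6% had an equal deposited value on more than 1 array, and the reason was not tested. After quantile normalization 1 of 8 was lower, where 3.26% of all genes were.

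CLDN4 read 7.12 and 7.22 in TGFβ, against 8.67 untreated, as deposited, and 7.54 and 7.64, against 8.61, after quantile normalization. On the quantile scale both TGFβ arrays lay below all 7 other parental arrays, which began at 8.22, as for 9.57% of all genes. With each array centred on its median the differences were -0.75 and -0.61. Their mean lay at percentile 1.68 of all genes as deposited and at 1.08 after quantile normalization.

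CLDN7 and CDH1 read lower in TGFβ than untreated as deposited and after quantile normalization but not with centred arrays. On the centred scale the median of all genes lay 0.35 above the untreated array, averaged over the days. CLDN7 differed by -0.80 and -0.77 as deposited and by -0.53 and -0.53 after quantile normalization, just short of the 0.58 of a 1.5-fold change, and by 0.00 and 0.06 with centring. CDH1 read 10.26 and 10.41 in TGFβ, against 10.99 untreated, as deposited, the 2 lowest of all 14 arrays. After quantile normalization its differences were -0.50 and -0.43, at percentile 6.995 of all genes by their mean, and with centring 0.07 and 0.26. CLDN1 was not lower on any scale: it differed by 0.00 and 0.07 as deposited, by 0.26 and 0.21 after quantile normalization and by 0.80 and 0.91 with centring. By the size rule CLDN1 and ST14 were lower on 4-OHT on all 3 scales. In TGFβ CLDN4 was lower on all 3 scales, and CLDN3 and CLDN7 as deposited only. With centring CLDN1 counted as higher in TGFβ, as did 2490 of 11050 genes. The difference between these models was not tested.

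The remaining members were nearer to their untreated level in TGFβ. After quantile normalization ST14 differed by -0.08 and -0.29, TJP1 by -0.15 and -0.09 and EPCAM by -0.06 and -0.04. The shared OCLN probe set differed by -0.06 and 0.18. As deposited these were -0.40 and -0.57 for ST14, -0.39 and -0.24 for TJP1 and -0.32 and -0.18 for EPCAM, beside a median of all genes of -0.45 and -0.47. With centred arrays TJP1 averaged 0.50, EPCAM 0.56 and ST14 0.33 above the untreated array, so their direction turned with the scale. On that scale the median of all genes was itself 0.35, with 2490 of 11050 genes higher and 206 lower by the size rule. Of the 4 mesenchymal markers that passed the filter, FN1 was higher and VIM lower by the size rule on all 3 scales, and COL1A1 was lower as deposited only. VIM read 3.66 and 3.56 in TGFβ, against 5.69 untreated, as deposited, and 4.40 and 4.31, against 5.59, after quantile normalization. These deposited VIM values all lay below the filter level of 5.90. VIM passed the filter by its mean over all arrays, 6.06, which includes the Snai1ER values of 6.57 to 8.18. Its lower reading in TGFβ is thus a difference between dim values, and no loss of VIM is concluded from it. The part of these markers in the junction values was not tested.

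Hypoxia left every member within 1.5-fold of the untreated array. By the size rule 0 of 8 members counted, where 4.65% of all genes did, in either direction. CDH1 read 11.17 and 11.33 on days 1 and 2 of hypoxia, against 10.99 untreated, and the day 2 value was the highest of all 14 arrays. CLDN1 read 11.05 and 11.17, against 10.84, its 2 highest levels as deposited. After quantile normalization hypoxia day 2 stayed the highest (11.23), and both TGFβ arrays (11.12 and 11.07) lay above hypoxia day 1 (10.99). ST14 read 8.999 and 9.47, against 9.07, and CLDN7 9.55 and 9.55, against 9.39. The median difference of the 8 members, averaged over the days, was 0.15, beside -0.02 for all genes. The probe set of OCLN and OCLNP1 read 10.58 and 10.26, against 10.01, and its day 1 difference of 0.57 was the largest of these genes.

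**Figure D2:**
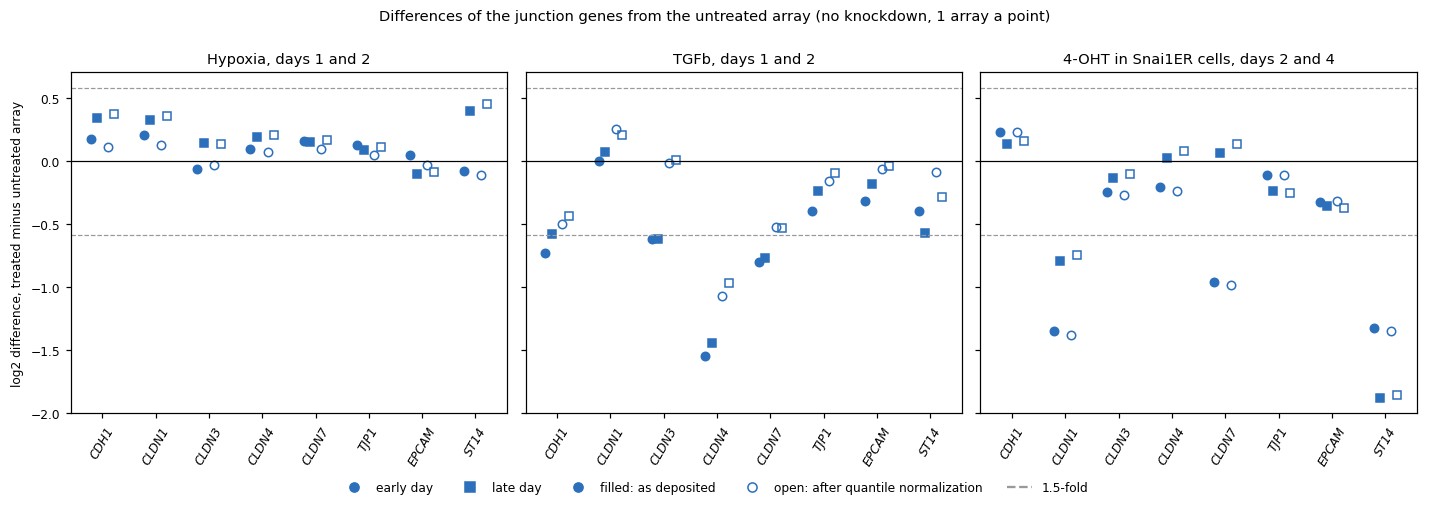
Log2 difference of each treated array without knockdown from the untreated array of its line, for 8 junction genes, early day (circle) and late day (square), as deposited (filled) and after quantile normalization (open); dashed lines mark 1.5-fold. No gene passes 1.5-fold in hypoxia, CLDN4 does so in TGFβ on both scales, and CLDN1 and ST14 do so on 4-OHT.

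TGFβ and hypoxia were also compared directly, over 4 pairs of parental arrays matched on day and knockdown, which does not use the untreated array. With limma and Benjamini-Hochberg adjustment over all 11050 genes, 0 of 8 members were called, where 2.14% of all genes were, and 1 member and 20.5% of all genes had an unadjusted p under 0.05. CLDN4 had the largest difference (-0.92, SE 0.31, adjusted p = 0.143), and CDH1 differed by -0.52 (SE 0.27, adjusted p = 0.285). After quantile normalization they were -0.74 (adjusted p = 0.145) and -0.50 (adjusted p = 0.209), again with 0 members called (2.53% of all genes), and 2 members with an unadjusted p under 0.05. Without the day 1 pair with knockdown, which holds the hypoxia array that stood apart, CDH1 was called (-0.80, adjusted p = 0.0420), as 1143 genes were. Outside the member list, 2 epithelial genes were called in this fit on both scales: the keratin KRT19 (-1.71 as deposited, adjusted p = 0.00835) and the mucin MUC1 (-1.25, adjusted p = 0.0381). The keratin KRT7 was called higher after quantile normalization (0.88, adjusted p = 0.0454) and with centred arrays, where KRT8, KRT18 and LAD1 were also called higher. On the centred scale 1185 of 11050 genes were called, and the median difference of all genes was 0.21.

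ANGPTL4 knockdown went with less claudin 1 in each of the 6 pairs of arrays that share treatment and day. The share of all genes with 1 direction in every pair was not counted, so the counts of pairs have no background here. The mean difference in CLDN1 was -0.69 (95% confidence interval -1.09 to -0.29), and it did not pass adjustment over all genes (SE 0.19, unadjusted p = 0.00237 and adjusted p = 0.156 in limma). After quantile normalization it was -0.78 (SE 0.18, adjusted p = 0.0789), also with 0 members called (0.896% of all genes). TJP1 read higher with knockdown in 5 of 6 pairs, with a mean difference of 0.42 (SE 0.20, adjusted p = 0.304), but in 3 of 6 with centred arrays. Over the 6 pairs 0 of 8 members were called, where 0.127% of all genes were, and 1 member, CLDN1, had an unadjusted p under 0.05, as did 16.7% of all genes.

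CLDN1 read 10.74 and 10.79 with knockdown in hypoxia, against 11.05 and 11.17 without it, which was the smallest gap of the 3 treatments. In TGFβ it read 9.65 and 10.38 with knockdown, against 10.84 and 10.91 without. On 4-OHT it read 7.77 and 8.57 with knockdown, against 8.77 and 9.32 without, a 1.99-fold and 1.68-fold lower level. The knockdown arrays lay below those without it, with no overlap, in each treatment, as for 25.3% of all genes in hypoxia, 7.86% in TGFβ and 26.8% on 4-OHT. After quantile normalization the TGFβ gaps were 2.93-fold and 1.77-fold, and CLDN1 stayed lower with knockdown in 6 of 6 pairs. With centring CLDN1 was also lower in 6 of 6, but so were CDH1, CLDN3 and CLDN7. On that scale the median of all genes was itself negative in each pair, from -0.42 to -0.08. With centred arrays limma called CLDN1 (-1.04, adjusted p = 0.0229) and CLDN7 (-0.61, adjusted p = 0.0390) among 1191 genes (10.8%), where the median of all genes was -0.23. Without the hypoxia day 1 pair after quantile normalization, a setting chosen after the values were seen, it was -0.91 (adjusted p = 0.0293, with 432 genes called).

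Against the untreated array, the 4-OHT cells with knockdown had the least CLDN1 of the series, 5.05-fold lower on day 2 and 2.92-fold lower on day 4. ST14 was 1.78-fold and 2.51-fold lower there. These 2 members counted by the size rule in 4-OHT with knockdown, where 4.86% of all genes were lower. In hypoxia with knockdown 0 of 8 counted (7.81% of all genes, either direction), and in TGFβ with knockdown 0 of 8 (4.33%). After quantile normalization CLDN1 counted in TGFβ with knockdown, with differences of -1.29 and -0.61, where 3.74% of all genes were lower. These differences hold treatment and knockdown together, since no untreated array had the knockdown.

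**Figure D3:**
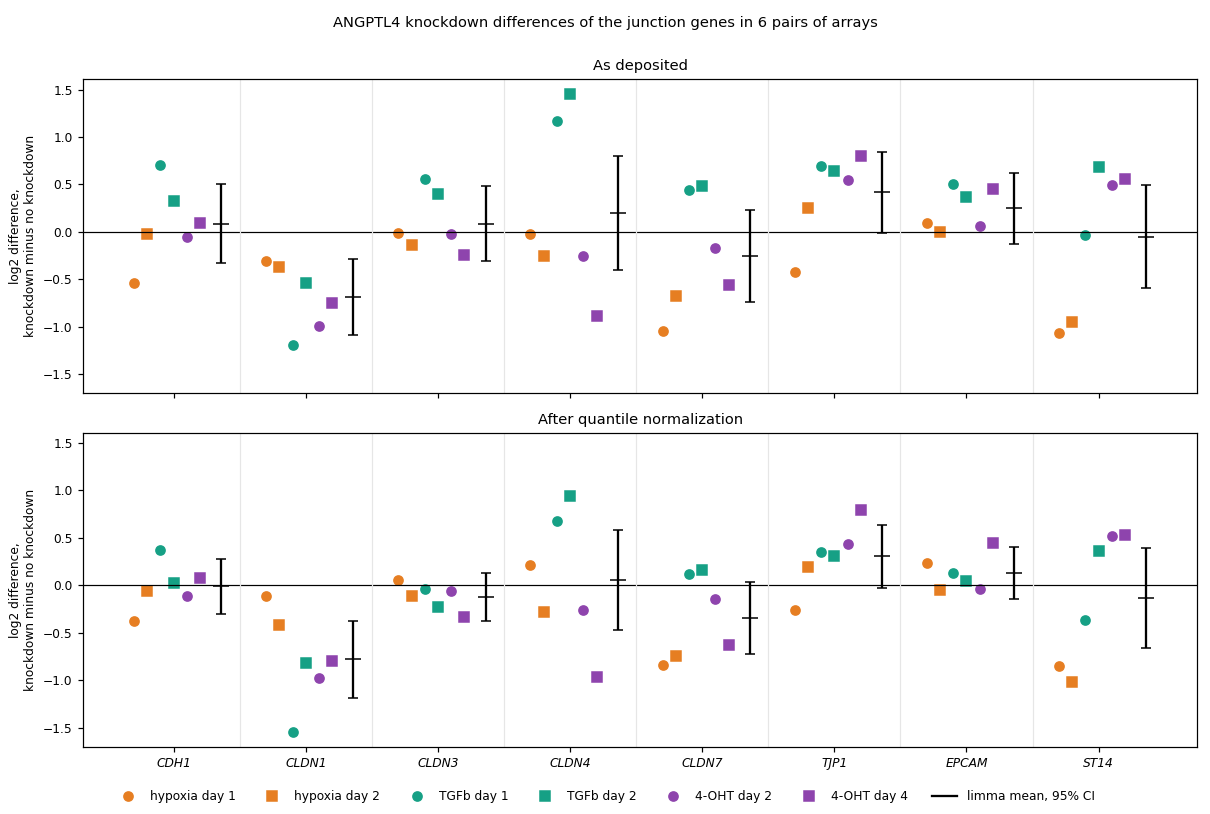
Log2 difference between the array with and the array without ANGPTL4 knockdown in each of 6 pairs (colour, treatment; circle, early day; square, late day), with limma's mean and 95% confidence interval in black, as deposited (top) and after quantile normalization (bottom). CLDN1 is below 0 in 6 of 6 pairs on both scales, CLDN4 is above 0 in TGFβ and below 0 on 4-OHT, and ST14 is below 0 in hypoxia and above 0 on 4-OHT.

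Within 1 treatment the members went different ways with knockdown, and each treatment had only 2 pairs, with the spread pooled over all 3. In hypoxia CLDN7 and ST14 were lower by the size rule. CLDN7 read 8.51 and 8.87 with knockdown, against 9.55 and 9.55 without, and ST14 7.94 and 8.53, against 8.999 and 9.47, with no overlap for either gene, as for 25.3% of all genes. Both passed 1.5-fold on both days on all 3 scales, where 4.02% of all genes were lower as deposited, 3.78% after quantile normalization and 5.3% with centring. The fit did not call them: ST14 differed by -1.004 (SE 0.24, adjusted p = 0.222) and CLDN7 by -0.86 (SE 0.22, adjusted p = 0.243), and 0% of all genes were called in hypoxia, with 2 members and 12.4% of all genes at an unadjusted p under 0.05.

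In TGFβ the knockdown arrays lay on the common level of the series and the arrays without knockdown lay low, and the median of all genes differed by 0.46 as deposited. There CLDN4 was higher with knockdown (1.31, SE 0.24, adjusted p = 0.0227) and CLDN1 lower (-0.86, SE 0.24, adjusted p = 0.0434), where 17.3% of all genes were called. After quantile normalization 0 of 8 members and 0% of all genes were called, with 2 members and 8.43% of all genes at an unadjusted p under 0.05. The differences were then 0.81 for CLDN4 (adjusted p = 0.464) and -1.19 for CLDN1 (adjusted p = 0.369), and both genes passed 1.5-fold on both days, where 1.36% of all genes were higher and 4.5% lower. As deposited CLDN1 missed that size on day 2 (-0.53), and with centred arrays CLDN4 did on both days (0.31 and 0.58). Leaving out either TGFβ pair, with the remaining pair assumed to vary like the others, ended both calls as deposited, with 0 of 11050 genes called, and leaving out either hypoxia pair added TJP1 (0.67, adjusted p = 0.0413), with 2949 genes called. CLDN4 read 8.29 and 8.68 with knockdown, against 7.12 and 7.22 without, and its knockdown arrays lay near the untreated 8.67.

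On 4-OHT, 0 of 8 members were called with knockdown, where 0.959% of all genes were, and 3 members and 18.2% of all genes had an unadjusted p under 0.05. CLDN1 was lower by the size rule, where 6.77% of all genes were lower. The fitted differences were -0.87 for CLDN1 (SE 0.24, adjusted p = 0.117), 0.67 for TJP1 (SE 0.24, adjusted p = 0.189), -0.57 for CLDN4 (SE 0.24, adjusted p = 0.258) and 0.52 for ST14 (SE 0.24, adjusted p = 0.301). TJP1 read 12.05 and 12.17 with knockdown, against 11.50 and 11.37 without, and these were its 2 highest levels on any array. ST14 read 8.04 and 7.55, against 7.55 and 6.996. CLDN4 read 7.52 and 7.12, against 7.78 and 8.01, with the larger gap on day 4. VIM read 7.49 and 6.57 on the 4-OHT arrays with knockdown, against 7.91 and 8.18 without; its part in these values was not tested.

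The knockdown differences of several members, ST14, CLDN4 and CLDN7 among them, had opposite signs in different treatments. The limma test of the difference between treatments, added after these values were seen, called no member. In TGFβ the difference was higher than in hypoxia by 1.46 for CLDN4, 1.32 for CLDN7 and 1.33 for ST14 (adjusted p = 0.128 for each). There 0 genes were called and 2997 of 11050 had an unadjusted p under 0.05. After quantile normalization these were 0.84, 0.93 and 0.93 (adjusted p = 0.810 for each). The ST14 difference was 1.53 higher on 4-OHT than in hypoxia (SE 0.34, adjusted p = 0.192), where 0 genes were called and 1281 of 11050 had an unadjusted p under 0.05. The CLDN4 difference was 1.89 lower on the log2 scale on 4-OHT than in TGFβ, an estimate of -1.89 (SE 0.34, adjusted p = 0.0619, with 0.299% of all genes called), and -1.42 after quantile normalization (adjusted p = 0.431). Between the Snai1ER and the parental pairs the knockdown effect was called different for 0 of 8 members, where 0.0452% of all genes were, with 1 member, CLDN4, and 8.71% of all genes at an unadjusted p under 0.05.

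CDH1, EPCAM and CLDN3 were not called with knockdown on any scale. CDH1 was higher in 3 pairs and lower in 3 as deposited, and lower in 6 of 6 with centred arrays, with a deposited mean of 0.09 (95% confidence interval -0.33 to 0.50). EPCAM had a mean of 0.25 (-0.13 to 0.62) and CLDN3 of 0.09 (-0.30 to 0.48), both as deposited. EPCAM was higher with knockdown in 5 of 6 pairs as deposited and in 1 of 6 with centred arrays. The 2 probe sets of EPCAM ran from 11.18 to 11.70 and from 11.58 to 12.33. They went different ways with knockdown in hypoxia. The lower one read 11.66 and 11.36 with it, against 11.44 and 11.35 without, and the higher one 12.03 and 11.84, against 12.06 and 11.85. CLDN3 stayed between 6.74 and 7.20 on all 14 arrays after quantile normalization.

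Late and early arrays of the same treatment and knockdown state were compared over 6 pairs. Of the 8 members 0 were called, as were 0% of all genes in limma, and 2 members and 1.38% of all genes had an unadjusted p under 0.05. These were CLDN1, with a late minus early difference of 0.39 (SE 0.14, adjusted p = 0.999), and CLDN7, with 0.35 (SE 0.16, adjusted p = 0.999). CLDN1 read lower on the earlier day in 6 of 6 pairs as deposited and in 4 of 6 after quantile normalization.

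The members were set beside lists of other junction genes, described by counts and medians. In hypoxia 4.65% of all genes passed the size rule in either direction, so a count of 0 in a short list is near that share. Hypoxia left 0 of 8 other claudins, 0 of 11 other tight junction genes, 0 of 9 desmosome genes and 0 of 16 polarity genes past the size rule. It counted as higher NECTIN4, a nectin of adherens junctions (differences 0.96 and 1.13, 1 of 13 adherens junction genes), PRSS8 and MUC1 (2 of 12 surface and protease genes) and KRT19 (1 of 6 simple keratins). PRSS8 encodes prostasin, a membrane-anchored protease that acts with matriptase, and it differed by 0.61 and 1.00.

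In TGFβ after quantile normalization, the lower genes of these lists were PLEKHA7, which links adherens junctions to microtubules (-0.86 and -0.91), the protease TMPRSS4 (-0.86 and -0.72), the adhesion molecule CEACAM1 (-1.80 and -1.75) and KRT19 (-1.19 and -1.22). No other claudin, desmosome or polarity gene counted there, where 3.26% of all genes were lower and 276 of 11050 higher. The list medians lay between -0.22 and 0.07, beside 0.01 for all genes. As deposited, 7 of 13 adherens junction genes counted as lower, CDH3 and JUP among them, with 4 of 8 other claudins and 4 of 11 other tight junction genes, beside the 32.3% of all genes, and none (0) as higher.

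On 4-OHT few genes of the other lists passed the size rule, and few of all genes did (2.3% higher and 1.19% lower). MPP7, a polarity scaffold, differed by 0.94 and 1.05, CEACAM1 by 0.94 and 1.10 and PRSS8 by 0.85 and 1.10, and all 3 counted as higher. KRT80 counted as lower (-0.60 and -0.80). None of the other claudins (0 of 8), other tight junction genes (0 of 11) or desmosome genes (0 of 9) counted, although the desmosome median was -0.31 beside 0.00 for all genes, with DSG2 (-0.21 and -0.91) and DSC2 (-0.46 and -0.67) the lowest. By level, ST14 and PRSS8, both epithelial proteases, stood on opposite sides of the untreated array on 4-OHT.

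With knockdown on 4-OHT, limma called NECTIN3, a nectin of adherens junctions, lower (-2.71, SE 0.29, adjusted p = 0.0122) and CEACAM1 lower (-1.70, SE 0.25, adjusted p = 0.0405), on both scales. NECTIN3 was also called for the difference between lines as deposited (-2.98, adjusted p = 0.0242). In TGFβ as deposited, where 17% of all genes were called higher, knockdown was called higher for 3 of 13 adherens junction genes (NECTIN1, NECTIN2 and PLEKHA7), 3 of 8 other claudins (CLDN5, CLDN11 and CLDN23), 1 of 11 other tight junction genes (TJP3), 1 of 9 desmosome genes (PERP), 2 of 16 polarity genes (CDC42 and LLGL2) and 3 of 12 surface and protease genes (CEACAM1, ERBB3 and MUC1). CEACAM1 differed there by 1.62 (adjusted p = 0.0227), opposite in sign to 4-OHT, and after quantile normalization none (0) of these genes was called. No gene of these lists was called with knockdown in hypoxia on any of the 3 scales, or over the 6 pairs as deposited or after quantile normalization. With centred arrays LIN7C, SPINT2, KRT8 and KRT18 were called lower over the 6 pairs.

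Among all kept genes, those whose 14 values most resembled the mean of the 8 standardised members were CHRNB1 (Pearson r 0.96), CAST (0.94), FUT3 (0.93), FAM111A (0.93) and TRIM2 (0.91), after quantile normalization. The single gene most like CLDN1 was CASP4 (0.96), most like CLDN4 ULBP2 (0.94), most like ST14 CAB39 (0.91) and most like CLDN7 DNAJB11 (0.85). For TJP1 it was ADAM9 (0.96), for CDH1 CCNI (0.92), for EPCAM ZDHHC6 (0.90) and for CLDN3 STX12 (0.82). These values describe 14 arrays that fall into 2 lines and share treatments and 2 untreated arrays, so the points are not independent and no test was made.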

How the data were processed

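RNA was isolated with Trizol, amplified with NuGEN reagents and hybridised to GeneChip Human Gene 1.0 ST arrays. The deposited values are log2 intensities that the authors summarised and normalized by RMA in Partek, per the submitters' processing notes, with versions and genome build not given in the sources used here. Of 33297 probe sets, 19460 carried 1 gene symbol in the platform annotation, 1754 several and 12083 were not listed. Probe sets of a gene were averaged (18417 genes), and genes whose mean lay below the 40th percentile, 5.90, were left out, which kept 11050. The number of arrays limits the precision.

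Each condition had 1 array. Treated and untreated arrays were therefore compared by size only (at least 1.5-fold in 1 direction at both times). Pairs of arrays were compared with limma 3.58.1 in R 4.3.3 (lmFit and eBayes) with the pair as a block, 6 pairs for knockdown and for late against early, 4 for TGFβ against hypoxia, with Benjamini-Hochberg adjustment over all 11050 genes and a threshold of 0.05. These pairs join arrays of different treatments and times, so the tests measure spread over conditions and not over repeated cultures. In simulated data with 200 changed genes the 6-pair knockdown fit recovered 8.96% of 1.5-fold, 55.2% of 2-fold and 92.4% of 4-fold changes, and the 4-pair fit of TGFβ against hypoxia recovered 0%, 2.99% and 65.2%. The late against early fit recovered 37.3%, 83.6% and 98.5%. The simulated noise was independent between genes and arrays, so these rates do not cover shifts shared by all genes, such as that of the TGFβ arrays without knockdown.

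Alternatives were quantile normalization, centring each array on its median, no filter, the brightest probe set, a mean-variance trend, no block, a 2-fold rule and leaving out pairs. The genes named were the 8 measured members, the genes past a rule in the related lists and the most alike genes by Pearson r. The members and lists were chosen with earlier results of these data known. Promoter windows came from RefSeq (GRCh38.p14).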

Additional observations from a re-analysis of the deposited data

How the results depend on the processing

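Of 134 alternative counts of members, 120 lay within 1.5 times the reported one. Many of the reported counts were 0, and 0 beside 0 was taken as the same. The 120 therefore do not measure how stable a call is. After quantile normalization the count in TGFβ was 1, in TGFβ with knockdown 1, and with knockdown within TGFβ 0. With centred arrays it was 2 in hypoxia with knockdown, 2 with knockdown over 6 pairs and 1 with knockdown within TGFβ. The TGFβ differences of CLDN3 and CLDN7 turned to 0.19 and 0.0328 there, beside a median of 0.35 for all genes. By a 2-fold rule it was 1 in TGFβ, 1 on 4-OHT, 1 on 4-OHT with knockdown and 0 between the untreated lines. Leaving out 1 pair at a time gave 0 to 1 members with knockdown over 6 pairs (1 only without hypoxia day 1 after quantile normalization, added after seeing the data), 0 to 3 within TGFβ, 0 to 1 for TGFβ against hypoxia, and 0 to 0 within hypoxia, within 4-OHT, between lines and for late against early. The labels give no replicate numbers, and the pairing is by treatment and day: without the replicate block 0 of 8 members were called over 6 pairs, with 4 genes in all against 14 in the reported fit. Over the 6 pairs the count of all genes was 99 after quantile normalization, 1191 with centring, 35 of 18417 without the filter, 28 with the trend, 2 without the TGFβ pairs and 5 to 41 when 1 pair was left out. The cause of these shifts was not tested. With 1 array per condition, no treated against untreated difference has a replicate check.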
